A study of Homo sapiens with 3 samples.

Results

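The regions described here are strong H3K27me3 peaks on chromosome arms that were called in U2OS cells treated with siORCA and lay over no peak of the control list. They numbered 1021, of 37697 siORCA peaks on the arms kept and of 105729 siORCA peaks in all. Members were chosen by their siORCA fold and by control overlap: a region was taken if its fold over background, as the authors' caller gave it in column 7 of the deposited list, was at least 4 and if it shared no base with any of the 181157 control peaks. Chromosomes 19, 20 and X were left out, together with a block around each remaining centromere, which on the acrocentric chromosomes 13, 14, 15, 21 and 22 reached to the start of the chromosome, so that 2465 Mb on 20 chromosomes remained. The fold and the missing overlap chose the members and are not findings. Of all siORCA arm peaks, 2.71% met the rule by construction.

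U2OS is a human osteosarcoma line. Cells received either the control labelled Gl3 or siORCA by transfection, and were then fixed in 1% formaldehyde for 10 min and profiled by ChIP-seq for H3K27me3. The labels place both ChIP libraries and an input, which was not analysed here, in 1 batch. With a single library for each condition the spread between replicates is unknown, so every comparison below is a description without a test. All values are of peaks, not of reads, and the read depth of the libraries is unknown.

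H3K27me3 is trimethylation of lysine 27 on histone H3, placed by the Polycomb repressive complex PRC2. It typically spreads over silent developmental genes as broad domains, which peak callers for broad marks report as wide peaks or as runs of adjoining peaks. ORCA, also called LRWD1, binds the origin recognition complex and is found at heterochromatin. The series title places it in the maintenance of Polycomb complexes, 3D genome architecture and replication timing. Peaks were not tied to genes here, because no annotation or genome on T2T-CHM13, the build of the files, was used. Regions are therefore named by position on that build, and no sequence is printed.

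Most members were very narrow. Their median width was 120 bp (95% interval of the median 116 to 122 bp), with quartiles at 104 and 174 bp. At or below 110 bp were 407 of the 1021 (39.9%), and 186 had the smallest width in the siORCA list, 102 bp. Peaks of 1 kb or more made up 19 of the members. Together the members covered 214.4 kb, which is 1.02% of the siORCA peak length on these arms. Few members thus had, as single peaks, the width of a broad domain.

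Other siORCA peaks on the same arms were wider. The 1103 arm peaks with a fold of at least 4 that did overlap a control peak had a median width of 337 bp (295 to 373 bp), and 254 of them reached 1 kb. The 15472 siORCA-only arm peaks with a fold under 4 had a median of 251 bp (247 to 255 bp), and 374 of them reached 1 kb (2.42%, against 1.86% of members). A low share of peaks of 1 kb or more was therefore not particular to the members. The 20101 weaker peaks that overlapped the control had a median of 416 bp. A wide peak has more bases on which to meet a control peak, so width and overlap are not independent measures. The width intervals treat peaks as independent and cover counting error only.

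**Figure D1:**
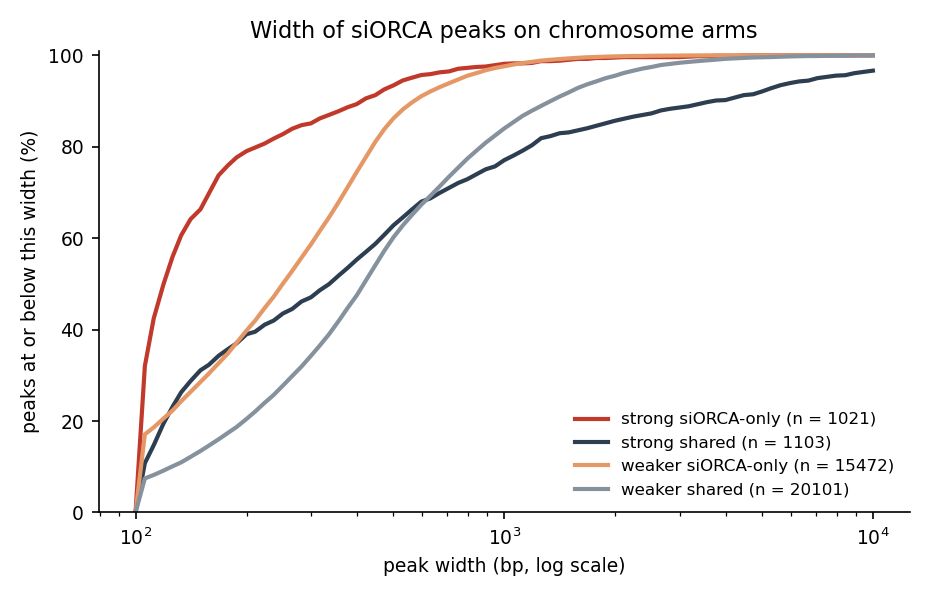
Cumulative share of siORCA arm peaks (y axis, %) at or below each width (x axis, bp, log scale) in 4 classes by fold and overlap with the control list; strong means a fold of at least 4. The curve of the strong siORCA-only peaks rises first, with a median of 120 bp, against 337 bp for strong shared peaks.

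Within siORCA-only peaks, higher folds went with smaller widths. The median width was 273 bp at folds under 3 (4609 peaks), 260 bp from 3 to 3.5 and 150 bp from 3.5 to 4. Among the members it was 121 bp from 4 to 4.5 (747 peaks), 115 bp from 4.5 to 5 (181 peaks), 114 bp from 5 to 6 (72 peaks) and 135 bp at 6 and above (21 peaks). How the caller derives the fold over the length of a peak is unknown, so width and fold may not be independent. Peaks shared with the control also narrowed past a fold of 4, but not at the top of the range. Their median was 334 bp at folds under 3, 445 bp from 3 to 3.5 and 508 bp from 3.5 to 4. It was 314 bp from 4 to 4.5, 297.5 bp from 4.5 to 5, 322 bp from 5 to 6 and 5016 bp at 6 and above (51 peaks). The strongest shared peaks were thus mostly kilobases wide. Of the 21 strongest members 19 were at most 300 bp wide, as were 870 of all 1021 members, so this was not particular to the strongest. Of the 21, 8 lay in a single cluster on chromosome 1, described below.

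**Figure D2:**
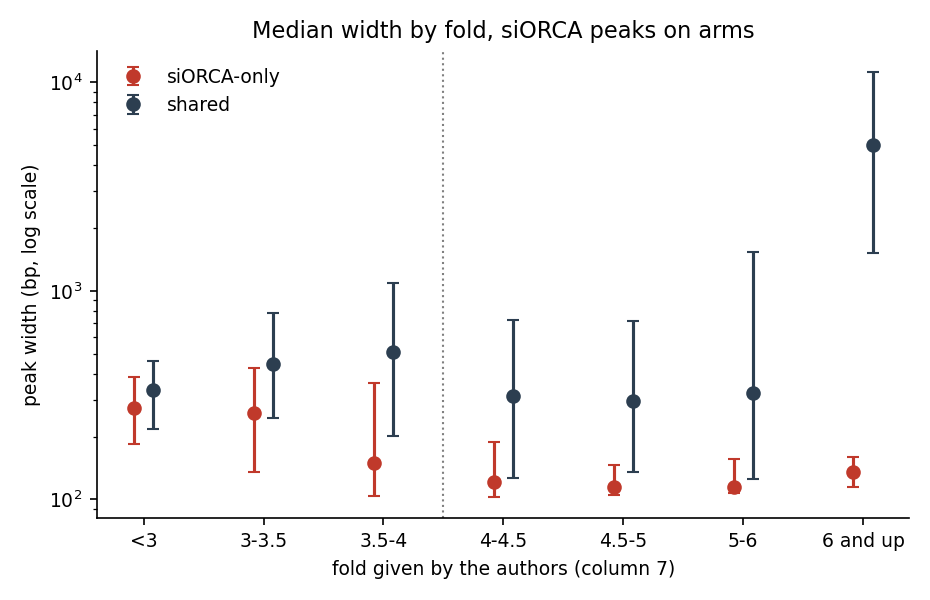
Median width (points; y axis, bp, log scale) with quartiles (bars) of siORCA arm peaks by the authors' fold (x axis), for peaks without and with control overlap; members lie to the right of the dotted line. At folds of 6 and above the median was 135 bp for siORCA-only peaks and 5016 bp for shared peaks.

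The folds of the members lay close to the limit. From 4 to 4.5 were 73.2% of them, 93 reached 5 and 21 reached 6, and the median was 4.26. Their −log10 q ran from 2.61 to 15.7 with a median of 3.19. The members just inside the limit had folds of 4.00001 (chr5:76087015-76087653), 4.00101 (chr1:10245-10354) and 4.00177 (chr12:52804368-52804469). The siORCA-only peaks just outside it had 3.99995 (chr7:147244241-147244354), 3.9999 (chr8:132669825-132669935) and 3.99916 (chr5:127626673-127626785). The limit therefore falls within a continuous range of values. Of siORCA arm peaks with a fold of at least 4, 48.1% had no base under a control peak, and of those with a fold under 4, 43.5%. In the other list, 26 of 221 control arm peaks with a fold of at least 4 had no base under a siORCA peak (11.8%). The arms held 102201 control peaks over 97.2 Mb and 37697 siORCA peaks over 21.1 Mb. The shares of the siORCA and control lists are therefore not comparable. The median fold was 3.29 in the siORCA list and 2.73 in the control list. Whether a fold of 4 stands for the same enrichment in both was not tested.

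The highest folds among the members were concentrated in part at a single place. Of the 5 with the highest folds, 4 lay within 39.1 kb on the long arm of chromosome 1, about 7.1 Mb from its end. These were chr1:241297320-241297526 with a fold of 8.70, chr1:241284046-241284279 with 7.92, chr1:241301479-241301611 with 7.43 and chr1:241290780-241291384 with 7.03. The other was chr11:4203077-4203203, 127 bp wide with a fold of 7.49 and 33.2 kb from the nearest control peak. Of the 21 members with a fold of at least 6, 8 were in this chromosome 1 cluster and 13 lay elsewhere.

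The cluster held 12 members from chr1:241262474 to 241301611. They were 120 to 605 bp wide, 2616 bp in all, and their folds ran from 4.68 to 8.70 with a median of 6.21. Their −log10 q ran from 3.79 to 12.2. They stood 0.957 to 6.5 kb apart with a median of 3.29 kb. All 12 siORCA peaks called in the span were members, so strong narrow peaks alternated with sequence in which no weaker peak was called. The flanks were empty for long distances. The nearest siORCA peak outside was 434.9 kb away on the left and 158.1 kb on the right, and the nearest control peaks were 50.98 kb and 157.0 kb away. The control list had 0 peaks in the span. This pattern of separate narrow peaks is unlike a broad domain. Isolated narrow peaks at such spacing can also be the exons of a gene, as DNA copied from a spliced transcript or carried on a plasmid would give. Whether these peaks are exons, and so whether their folds measure the histone mark, was not tested, since neither the annotation nor the reads at this position were analysed here. The 4 highest folds on chromosome 1 and 8 of the 21 folds of at least 6 carry that doubt.

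A second concentration on chromosome 1 was of another kind. It held 18 members over 242.7 kb, from chr1:227777924 to 228020621, and was found by joining members at most 100 kb apart. Here siORCA peaks were dense: 145 were called, covering 32.4% of the span, and 92 of them had no base under a control peak. Over all arms kept, 43.5% of siORCA peaks with a fold under 4 and 48.1% of those with at least 4 had none. The control list had 70 peaks there, covering 7.86%. Of the 31 siORCA peaks with a fold of at least 4, 13 overlapped the control. The 18 members had folds from 4.01 to 5.81 with a median of 4.23, below that of the cluster described above. They lay 0.379 to 3.47 kb from the nearest control peak. The members of this stretch thus lay among many other peaks of both lists. The highest fold there, 5.91, belonged to a peak that overlapped the control, and the highest among its members was 5.81.

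The long arm of chromosome 1 is known to carry the tandem array of 5S ribosomal RNA genes. Whether the dense stretch lies in it was not analysed here.

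**Figure D3:**
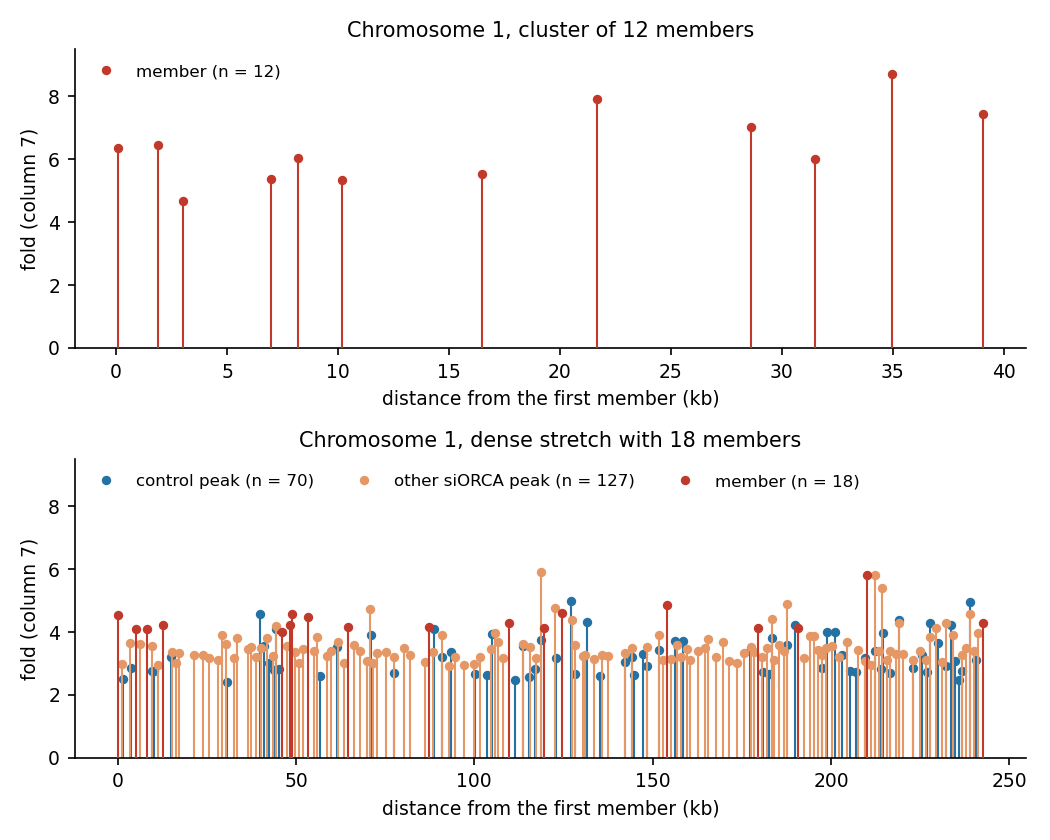
Fold of each peak (y axis, column 7 of its own list) against distance from the first member (x axis, kb) in the 2 chromosome 1 regions; vertical lines run from 0 to the fold. The upper region holds 12 members and no other peak of either list; the lower holds 18 members among 127 other siORCA peaks and 70 control peaks.

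Apart from these regions, members were scattered. The median gap to the nearest other member was 772.2 kb outside both regions and 739.5 kb over all members. Another member lay within 10 kb of 52 of the 1021 (5.09%, 95% Wilson interval 3.90 to 6.62%) and within 1 kb of 14. Joining members at most 10 kb apart gave 987 units, of which 969 were single members and 18 were clusters that held the 52. The interval takes members as independent, which those of a cluster are not, since they count each other. Of the 52 clustered members, 27 were on chromosome 1. Without both chromosome 1 regions, a choice made after seeing the data, 29 of 991 members (2.93%) had another within 10 kb. Within their own classes, 37.1% of the more numerous weaker siORCA-only peaks and 19.3% of strong shared peaks had another within 10 kb. A class with more peaks has them closer together, so the first of these shares is not comparable with that of the members, whereas the strong shared class, with 1103 peaks, is close to them in number.

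The 5 largest clusters were the one with 12 members, 3 within the dense stretch and 1 on chromosome 8. The 3 were chr1:227777924-227790663 and chr1:227823704-227831389, with 4 members each, and chr1:227887531-227902745 with 3. The chromosome 8 cluster, chr8:7588547-7592307, had 3 members of 115 to 175 bp with folds from 4.09 to 4.57, and no other peak of either list lay among them. Its members were 3.88 to 7.52 kb from a control peak. The other 13 clusters were pairs.

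Among 774 bins of 1 Mb with a member, 602 held 1, 133 held 2 and 2 held 6 or more. Chromosome 1 had the highest density, 0.682 members per Mb of arm (149 members), against 0.414 over all arms. Without both regions its density was 0.545 (119 members), still the highest. The next were chromosomes 16 (0.477), 13 (0.465), 12 (0.463) and 4 (0.463). The lowest were chromosome 22 with 0.223 (7 members), chromosome 17 with 0.269 (20) and chromosome 8 with 0.311 (43). The order was not that of all siORCA arm peaks. Chromosome 16 was also high in siORCA arm peaks, with 28.1 per Mb, and chromosome 1 had 19.6, against 15.3 over all arms. Chromosome 22 had the most (30.2 per Mb), and members were 0.741% of them. Chromosome 13 had the fewest (9.30), and members were 4.99% of them. Densities were not tested between chromosomes.

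**Figure D4:**
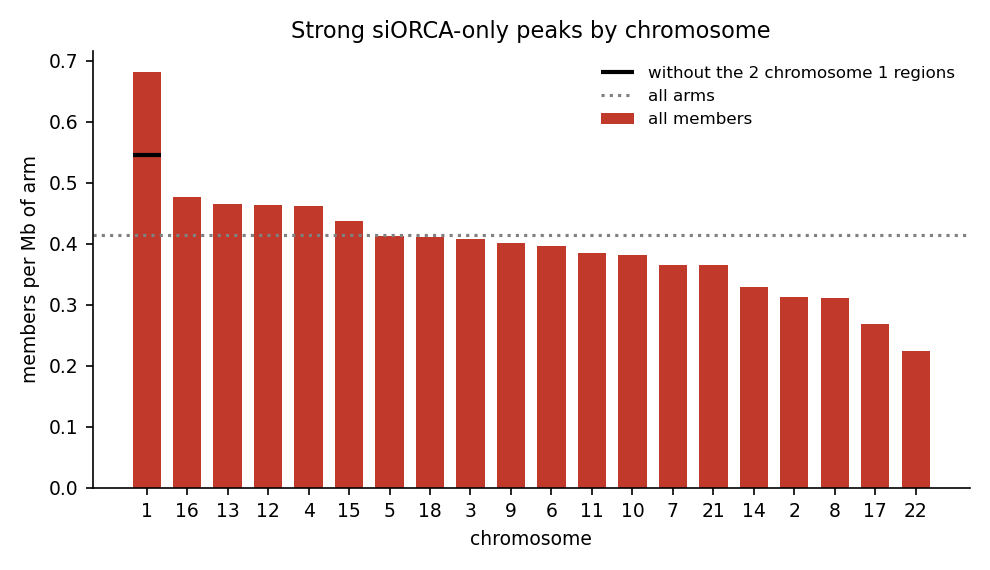
Strong siORCA-only peaks per Mb of arm (bars, y axis) on the 20 chromosomes kept (x axis, in order of density); the black line marks chromosome 1 without its 2 regions and the dotted line all arms together. Chromosome 1 stands at 0.682, or 0.545 without the regions, and chromosome 22 at 0.223.

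Members lay at all distances from control peaks, from 1 bp to 672.2 kb. The median gap was 6.87 kb (95% interval of the median 5.54 to 8.06 kb), with quartiles at 0.854 and 26.3 kb. It was 56.1 kb when only control peaks with a fold of at least 3 counted as neighbours, and 11.3 kb for the 93 members with a fold of at least 5. Of these 93, 11 were in the chromosome 1 cluster of 12, whose members lay 51.0 to 90.0 kb from a control peak. For the weaker siORCA-only peaks the median gap was 3.06 kb (2.87 to 3.20 kb), so by the median members stood farther from the control. The intervals of gaps and shares treat peaks as independent. Members of a cluster that have the same nearest control peak are not. Within 1 kb of a control peak were 276 of the 1021 members (95% Wilson interval 24.4 to 29.8%) and 33.8% of the weaker peaks. Within 10 kb were 56.8% (53.7 to 59.8%) and 67.3%. Of all arm bases outside control peaks, 6.61% lay within 1 kb of one and 36.9% within 10 kb. The members were thus nearer to control peaks than arm bases taken as a whole and farther than weaker siORCA-only peaks. At 100 kb the 3 shares were 96.2%, 96.5% and 93.4%. Widths were not matched between the classes, and the 152 members of at least 300 bp had a median gap of 3.88 kb.

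**Figure D5:**
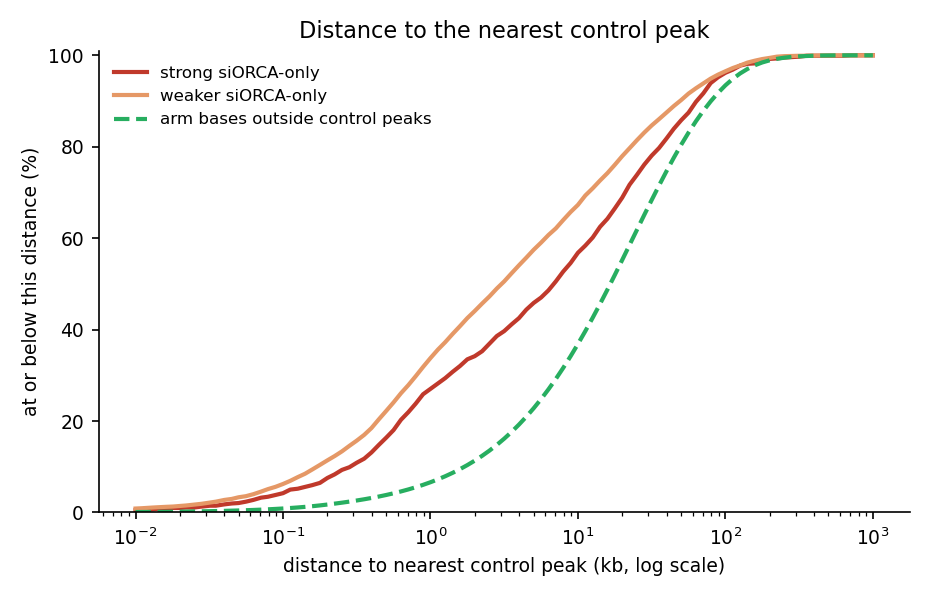
Cumulative share (y axis, %) at or below each distance to the nearest control peak (x axis, kb, log scale) for strong and weaker siORCA-only arm peaks, and for all arm bases outside control peaks (dashed). At 10 kb the curves stand at 56.8%, 67.3% and 36.9%.

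The neighbours of a member differed with that distance. Of the 276 members at most 1 kb from a control peak, 185 had another siORCA peak within 3 kb, and 152 belonged to a run of siORCA peaks, joined at gaps of at most 3 kb, that included a peak over the control. Of the 402 members 10 to 100 kb away, 50 (12.4%) had a siORCA peak within 3 kb. Among weaker siORCA-only peaks the shares with a siORCA peak within 3 kb were 61.3% and 20.8% in the same distance classes. Over all distances, 671 members (65.7%) were alone in their run. In a run that also held a peak over the control were 223 (21.8%). The other 127 (12.4%) were in a longer run that held none. A siORCA peak lay within 3 kb of 34.3% of members and of 41.1% of weaker siORCA-only peaks. Near control peaks the members thus often belonged to a longer run, and far from them they mostly stood alone.

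Control peaks on both sides within 3 kb flanked 128 members (12.5%), and 621 (60.8%) had none within 3 kb on either side. Within 3 kb of a control peak were 39.2% of members, 49.8% of weaker siORCA-only peaks and 15.5% of arm bases outside control peaks. The nearest control peak itself was ordinary. Its median fold was 2.73 and its median width 452 bp, against 2.71 and 492 bp over all control arm peaks. The median width of members changed little with distance, from 125 bp at up to 1 kb to 110 bp beyond 100 kb (39 members).

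The members closest to control peaks were chr1:162225742-162225848, 1 bp away, chr18:82988-83089, 2 bp away, and chr10:119495859-119496111, 3 bp away. Counting such peaks as siORCA-only rests on the edges the caller drew. The 5 farthest were chr10:3103364-3103497 at 672.2 kb, chr7:153558264-153558463 at 320.8 kb, chr13:86385242-86385343 at 318.4 kb, chr12:122654426-122654593 at 315.3 kb and chr4:157757727-157757840 at 254.4 kb. All 5 were 102 to 200 bp wide with folds from 4.08 to 4.30, near the limit. Their nearest siORCA peaks were also far, at 61.3 to 254.5 kb.

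Wide members were few, and 11 of 19 lay near a chromosome end. The widest was chr1:717422-721718, 4297 bp with a fold of 6.06, 74.96 kb from a control peak and 0.717 Mb from the chromosome end. It was followed by chr22:51154242-51157969 (3728 bp, fold 4.57), chr16:1020638-1023844 (3207 bp, fold 4.04), chr3:198188392-198191471 (3080 bp, fold 4.10) and chr11:61198537-61200596 (2060 bp, fold 4.30). The first 4 were within 3 Mb of a chromosome end, and the last was in the interior of its chromosome, 61.2 Mb from the nearer end. Of the 19 members of at least 1 kb, 11 lay within 3 Mb of an end, against 64 of 374 weaker siORCA-only peaks of that width (17.1%) and 19.3% of all siORCA arm peaks of that width. Members of all widths were less often there, 84 of 1021 (8.23%), against 12.7% of all siORCA arm peaks and 4.26% of the arm length. The limits of 1 kb and 3 Mb were chosen after seeing the positions, and these shares were not tested.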

How the data were processed

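H3K27me3 ChIP-seq peaks of 1 control and 1 siORCA library were analysed, as 1 broadPeak list each. Trimmomatic, Bowtie2, SAMtools, bcl2fastq and the build T2T-CHM13 appear in the submitters' processing notes, without versions. No source used here names the peak caller or its settings. Column 7 holds the fold (a ratio) over background as deposited by the authors, and columns 8 and 9 hold the deposited −log10 p and −log10 q. The deposited score, which restates −log10 q times 10 without decimals (exceptions: 10 control and 8 siORCA peaks), was not used. The lowest −log10 q in either list was 1.00. Depth was not given, so folds of both lists were only set side by side and not tested against each other.

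Coordinates are printed from 1. A peak with any base in an omitted block was left out. Each chromosome was taken to end where its last peak of either library ended. Gaps count the bases between peaks; control peaks of all chromosome parts served as neighbours. Intervals are 95%, Wilson for shares and from the binomial order statistics for medians. The members, lists and distance limits were chosen with earlier results of these data known. The named regions are the 5 members with the highest fold, the 5 widest, the 5 farthest from control peaks, the 5 largest clusters, and the 5 chromosomes with the highest density and the 3 with the lowest; the closest members and the dense chromosome 1 stretch were added after their values were seen. Gap and overlap code (Python 3.11.15, numpy 2.4.6, pandas 2.3.3) was tested on 245 simulated peaks, of which 0 differed from a base-by-base count. Against bedtools 2.31.1, 0 of 105729 gaps differed. Alternatives were other limits on fold, −log10 q, width, gaps and blocks.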

Additional observations from a re-analysis of the deposited data

How the results depend on the processing

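No paired analysis was possible because each condition had 1 library, and for the same reason no library could be left out. A −log10 q of at least 2 kept all 1021 members, since each was above it. Blocks widened by 2 Mb on each side kept 995, with each median and share inside the interval of its main value. Both settings kept nearly the same peaks, which left little room for change. A fold of at least 5 left 93 members, whose median width stayed within the interval of the main value. Their median distance to a control peak was 11.3 kb, 11.8% had another member within 10 kb and 29.0% had a siORCA peak within 3 kb. Of these 93, 11 were in the cluster of 12. Members of at least 300 bp numbered 152, with a median width of 475 bp, a median distance of 3.88 kb and a siORCA peak within 3 kb of 57.2%. With no control peak within 1 kb, 745 remained, with a median distance of 15.4 kb and a siORCA peak within 3 kb of 22.1%; the longer distance follows from the limit. Counting only control peaks with a fold of at least 3 as neighbours moved the median distance to 56.1 kb, as fewer neighbours were counted. The share of members with another member nearby was 1.37% within 1 kb and 14.9% within 100 kb, and a siORCA peak lay within 10 kb of 43.3%. Without both chromosome 1 regions (chosen after seeing the data) the share within 10 kb of another member was 2.93%, against 5.09%. The small median width held under every alternative other than the limit of 300 bp, which sets it. No depth was measured, and a member was not shown to lack the mark in control cells.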
